A study of Mus musculus with 6 samples.

Results

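The genes described here move, store or release iron: Tfrc, Steap3 and Slc11a2 (uptake), Fth1 (storage), Hmox1 (release from heme), and Slc40a1 and Cp (export). Slc11a1, a transporter of phagosomes, belongs to the same set but was not analysed here. A member was a gene whose symbol was the only one annotated to a probe set. This gave 7 of 8 listed genes, each with 1 probe set, among 19938 named genes in all. Bone marrow cells of mice were measured on 6 Affymetrix gene arrays, 2 biological replicates in each of 3 groups. All mice were C57BL/6 (B6), wild type and 8 weeks old. Donors were pre-treated with 5-fluorouracil, their marrow was infected with retrovirus, and B6 recipients received it. The BCR-ABL-Blk group carried BCR-ABL together with Blk and GFP, the BCR-ABL group carried BCR-ABL and GFP, and the vector group carried GFP alone. BCR-ABL is a fusion kinase that drives chronic myeloid leukemia, while Blk belongs to the Src kinases and is best known in B cells. The sort, 14 days after transfer, kept lineage-negative cells that carried GFP, Sca-1 and c-Kit. The labels call them leukemic stem cells in both BCR-ABL groups and hematopoietic stem cells in the vector group. The number of mice behind a replicate and the promoter of the transgenes were not given in the sources used here. The p-values thus measure only the spread between these samples, which may be technical.

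Cells take up iron bound to transferrin through the transferrin receptor; the iron is freed in the endosome, reduced, and carried into the cytosol. Spare iron is kept inside ferritin, iron in heme is freed by heme oxygenase, and ferroportin is the known exporter of iron from animal cells. In bone marrow, maturing red cells take up most of the iron, while macrophages that digest old red cells return it to the blood through heme oxygenase and ferroportin.

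Levels below are log2 intensities after quantile normalization of the arrays. Differences are the first-named group minus the second, tested with limma over all named genes with Benjamini-Hochberg adjustment, and called below an adjusted p of 0.05. A difference of 1 is a change of 2-fold. The number of arrays limits the precision: the median standard error of a difference was 0.129. Signal over background was not measured, so folds may understate the change of a dim gene. The deposited array medians ran from 7.01 to 7.52. Left without normalization, BCR-ABL-Blk arrays had a median gene difference of 0.15 from vector and of 0.255 from BCR-ABL arrays, and BCR-ABL arrays had one of −0.11 from vector. Across genes, the vector arrays correlated with each other less (r = 0.987) than the BCR-ABL-Blk arrays (r = 0.992) or the BCR-ABL arrays (r = 0.994). As a check of the labels, Blk read 6.95 and 7.0 on BCR-ABL-Blk arrays, 6.54 and 6.60 on BCR-ABL arrays, and 7.14 and 6.95 on vector arrays. Its difference was 0.41 from BCR-ABL (limma adjusted p = 0.999) and −0.07 from vector (adjusted p = 0.914), so a raised Blk level over vector was not seen. Kit, the gene of the sort marker c-Kit, read 10.74 and 10.33 on BCR-ABL-Blk arrays, 10.43 and 10.42 on BCR-ABL arrays, and 10.71 and 10.92 on vector arrays.

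Slc40a1, which encodes ferroportin, was the iron gene with the largest differences in all 3 comparisons. It read 7.02 and 6.72 on BCR-ABL-Blk arrays, 7.54 and 7.65 on BCR-ABL arrays, and 8.26 and 8.24 on vector arrays. The groups stand in steps: both BCR-ABL-Blk arrays lie below both BCR-ABL arrays, and these lie below both vector arrays. The mean was 6.87 ± 0.22 in BCR-ABL-Blk cells and 8.25 ± 0.01 in vector cells (SD, n = 2 each), so Slc40a1 fell 2.62-fold (difference −1.39, SE 0.14, 95% interval −1.71 to −1.06, limma adjusted p = 0.0312). By its unadjusted p it ranked 9 among 19938 genes in that comparison. In BCR-ABL cells the mean was 7.60 ± 0.08, which was 1.58-fold below vector cells (difference −0.66, SE 0.14, 95% interval −0.98 to −0.34) and did not pass (limma adjusted p = 0.169). BCR-ABL-Blk cells lay 1.66-fold below BCR-ABL cells (difference −0.73, SE 0.14, 95% interval −1.05 to −0.41), also without passing (limma adjusted p = 0.999). Without normalization between arrays that difference was −0.44, where the median of all genes stood at 0.25. The comparisons share arrays, so the values are set side by side and are not independent of each other.

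The fall in BCR-ABL-Blk against vector cells was called with either vector array left out (adjusted p = 0.00849 and 0.0115). It was not called without BCR-ABL-Blk replicate 1 (difference −1.54, adjusted p = 0.0654), without BCR-ABL-Blk replicate 2 (−1.24, adjusted p = 0.102), or without either BCR-ABL array, which only lend their spread here (adjusted p = 0.0913 and 0.0959). The sign was the same in every alternative run, and the difference lay between −1.54 and −1.23.

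**Figure D1:**
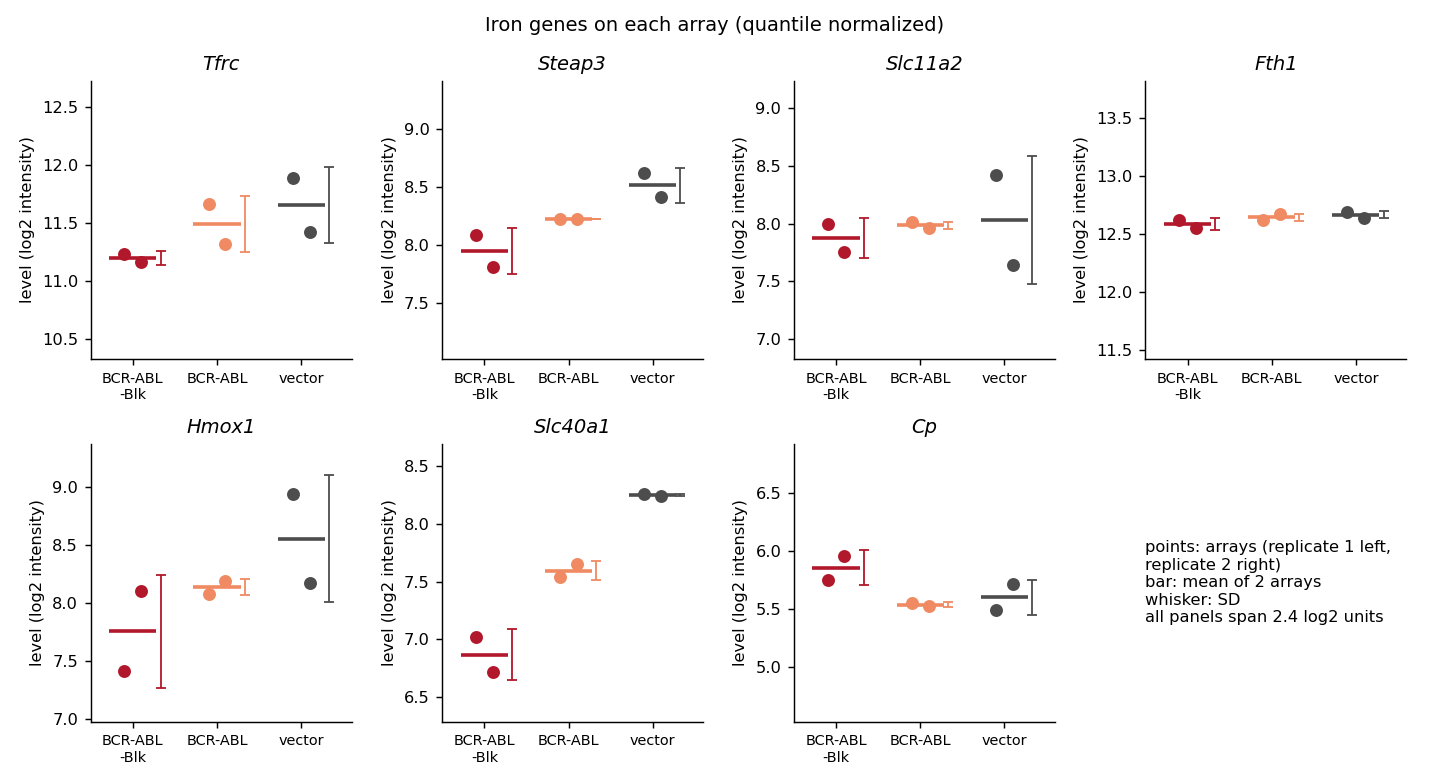
Level of each iron gene (y axis, log2 intensity, every panel spanning the same range) on the 6 arrays, with BCR-ABL-Blk, BCR-ABL and vector cells from left to right. Points are arrays, bars are means and whiskers are SDs of 2 arrays. Slc40a1 steps down with no overlap, with means of 6.87 in BCR-ABL-Blk, 7.60 in BCR-ABL and 8.25 in vector cells, while the arrays of Fth1 lie within 0.14 of each other.

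Among the 7 iron genes, 1 (Slc40a1) fell and 0 rose between BCR-ABL-Blk and vector cells; over all genes 0.14% were called, 0.0451% lower and 0.0953% higher. Between BCR-ABL and vector cells 0 of 7 were called by limma, where 0.145% of all genes were, 0.0251% lower and 0.12% higher. These are 24 higher and 5 lower genes, a balance that turned to 176 higher and 225 lower without normalization between arrays and to 70 higher and 144 lower without vector replicate 2. Set against BCR-ABL cells, BCR-ABL-Blk cells had 0 of 7 called, as were 0.0% of all genes by limma. There 790 genes (3.96%) had an unadjusted p under 0.05, a share below what that threshold passes on average when no gene differs. At that unadjusted level 4 of 7 were lower between BCR-ABL-Blk and vector (Slc40a1, Steap3, Tfrc and Hmox1) and 0 higher, against 4.11% of all genes lower, 5.31% higher and 9.42% in either direction. Between BCR-ABL and vector 1 of 7 (Slc40a1) was lower and 0 higher, against 2.96% lower, 5.67% higher and 8.64% in either direction. In BCR-ABL-Blk against BCR-ABL cells 1 was lower (Slc40a1), against 2.49%, and 1 was higher (Cp), against 1.47%. These shares describe members that were proposed with results of these data known.

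By sign, 6 of 7 iron genes lay below 0 between BCR-ABL-Blk and vector, as did 48.8% of all genes, with a median difference of −0.46 where the median of all genes was 0.0. Without normalization between arrays 5 of 7 did, with a median of −0.30, and without vector replicate 1 also 5, with a median of −0.23. Between BCR-ABL and vector 7 of 7 lay below 0 (45.6% of all genes), with a median of −0.16 against 0.02 for all genes. Without vector replicate 1 only 4 of those 7 did, with a median of −0.03. In BCR-ABL-Blk against BCR-ABL cells 6 of 7 lay below 0 (54.3% of all genes), with a median of −0.26 against −0.01. Without normalization between arrays 3 did, with a median of 0.02 where all genes had 0.25, so the direction of the small differences between these groups depends on the scaling.

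Counted by arrays that did not overlap, 5 of 7 iron genes were lower between BCR-ABL-Blk and vector (17.5% of all genes) and 1 was higher (19.7%). Only Slc11a2 overlapped there. Between BCR-ABL and vector 2 were lower (14.9%) and 0 higher (22.1%). For BCR-ABL-Blk and BCR-ABL, 4 were lower (20.0%) and 1 was higher (14.0%).

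**Figure D2:**
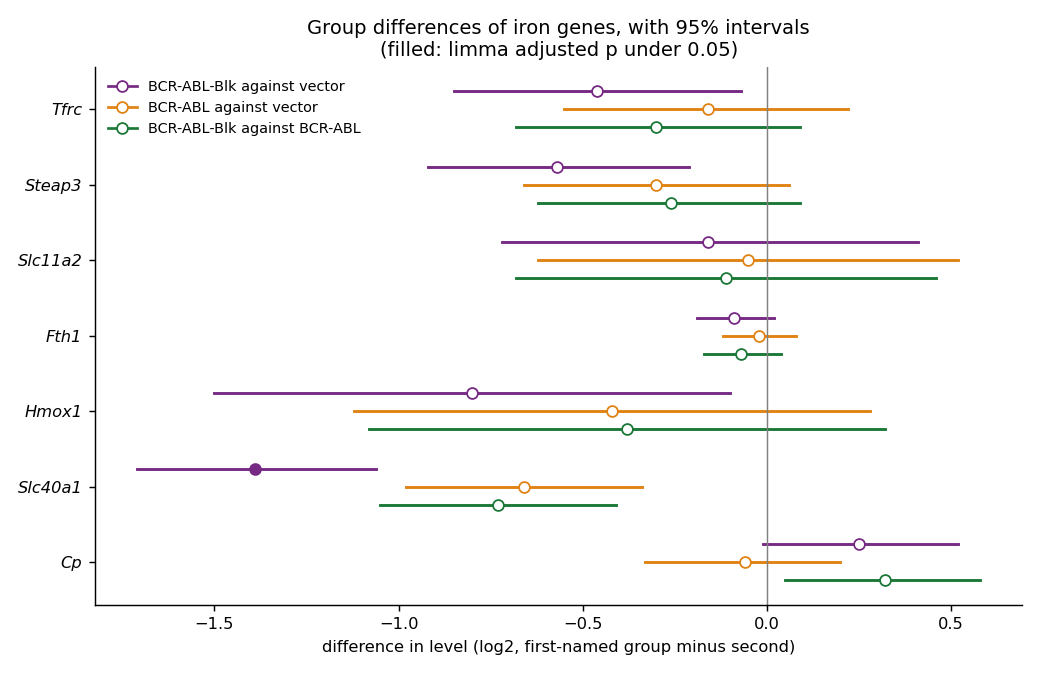
Difference in level (x axis, log2, first-named group minus second) of each iron gene with its 95% interval, for BCR-ABL-Blk against vector, BCR-ABL against vector, and BCR-ABL-Blk against BCR-ABL. The filled point, Slc40a1 in BCR-ABL-Blk against vector (−1.39), is the difference past the threshold. Open points are those that did not pass.

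Tfrc encodes transferrin receptor 1, the main route of iron uptake in dividing cells and red cell precursors. It read 11.23 and 11.16 on BCR-ABL-Blk arrays, 11.66 and 11.32 on BCR-ABL arrays, and 11.89 and 11.42 on vector arrays. Both BCR-ABL-Blk arrays were below the other 4, while the BCR-ABL and vector arrays overlapped. The difference was −0.46 (SE 0.17, adjusted p = 0.425) between BCR-ABL-Blk and vector, −0.16 (adjusted p = 0.844) between BCR-ABL and vector, and −0.30 (adjusted p = 0.999) between BCR-ABL-Blk and BCR-ABL. None of these passed, and the interval of the first ran from −0.85 to −0.07. Without vector replicate 1 it was −0.23.

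Steap3 encodes the ferrireductase that reduces iron in the endosome of red cell precursors, next in the same route. It read 8.09 and 7.81 on BCR-ABL-Blk arrays, 8.22 and 8.22 on BCR-ABL arrays, and 8.62 and 8.41 on vector arrays. Its groups stand in the same order as those of Slc40a1 and do not overlap. BCR-ABL-Blk cells differed from vector cells by −0.57 (SE 0.15, 95% interval −0.92 to −0.21), which did not pass (adjusted p = 0.275). The difference was −0.30 (adjusted p = 0.645) between BCR-ABL and vector. For BCR-ABL-Blk against BCR-ABL it was −0.26 (adjusted p = 0.999) and turned to 0.02 without normalization between arrays. Arrays of BCR-ABL-Blk below those of BCR-ABL, and these below those of vector, were found for 2 of 7 iron genes and for 1.77% of all genes.

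The promoters of these uptake genes are shown because Tfrc and Steap3 are the iron genes lower at an unadjusted p in BCR-ABL-Blk cells for which RefSeq promoter sequence was at hand; those of Slc40a1 and Hmox1 were not used here. Each runs from 250 bases before to 50 after the gene's most upstream annotated start (RefSeq, GRCm38.p6). Capitals mark matches to 4 motifs searched on both strands: ACGTG (the core of hypoxia response elements), TGACNNNGC (the core of antioxidant response elements), GATAA (bound by GATA factors) and TTCNNNGAA (bound by STAT factors). The Tfrc window lies at chr16:32608646-32608945 on the plus strand, and the Steap3 window at chr1:120271031-120271330 on the minus strand.
Tfrc: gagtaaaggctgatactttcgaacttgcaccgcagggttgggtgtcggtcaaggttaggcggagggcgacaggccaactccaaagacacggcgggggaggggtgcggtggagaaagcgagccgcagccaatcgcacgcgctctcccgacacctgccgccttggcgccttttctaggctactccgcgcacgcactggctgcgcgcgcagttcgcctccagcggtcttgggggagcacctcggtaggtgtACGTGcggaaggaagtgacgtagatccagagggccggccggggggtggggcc
Steap3: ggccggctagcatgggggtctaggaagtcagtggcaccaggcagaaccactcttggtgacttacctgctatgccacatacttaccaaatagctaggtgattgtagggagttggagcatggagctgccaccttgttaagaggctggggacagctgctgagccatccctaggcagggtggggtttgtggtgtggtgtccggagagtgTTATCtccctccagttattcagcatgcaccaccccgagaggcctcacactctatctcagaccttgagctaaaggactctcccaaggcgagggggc

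The Tfrc window held 1 ACGTG, on the gene's strand with its first base at position −2 from the start, and none of the other motifs. The Steap3 window held 1 GATAA, on the opposite strand, with its first printed base at position −45. Neither match overlaps another. Of 27025 promoter windows of the same length, 19.6% held ACGTG, 25.8% GATAA, 12.4% TGACNNNGC and 8.42% TTCNNNGAA. These matches are letters in a window and were not tested for binding.

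Slc11a2 encodes DMT1, which carries reduced iron out of the endosome into the cytosol. It read 8.00 and 7.75 on BCR-ABL-Blk arrays, 8.01 and 7.96 on BCR-ABL arrays, and 8.42 and 7.64 on vector arrays. The vector arrays lie on both sides of all the others. The difference was −0.16 (95% interval −0.72 to 0.41, adjusted p = 0.915) between BCR-ABL-Blk and vector, −0.05 (−0.62 to 0.52, adjusted p = 0.982) between BCR-ABL and vector, and −0.11 (−0.68 to 0.46, adjusted p = 0.999) between BCR-ABL-Blk and BCR-ABL. Without vector replicate 1 the differences from vector turned to 0.23 for BCR-ABL-Blk and 0.34 for BCR-ABL cells.

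Fth1 encodes the heavy chain of ferritin, which oxidises iron as it is stored. It read 12.62 and 12.55 on BCR-ABL-Blk arrays, 12.62 and 12.67 on BCR-ABL arrays, and 12.69 and 12.64 on vector arrays. Its range over the 6 arrays, 0.14, was the smallest among the iron genes. The difference was −0.09 (95% interval −0.19 to 0.02, adjusted p = 0.616) between BCR-ABL-Blk and vector, −0.02 (−0.12 to 0.08, adjusted p = 0.945) between BCR-ABL and vector, and −0.07 (−0.17 to 0.04, adjusted p = 0.999) between BCR-ABL-Blk and BCR-ABL. The interval of the first allows at most a 0.19 lower level on this scale, but without normalization between arrays it turned to 0.03. Ferritin genes have near-identical pseudogenes, so the source of this signal is uncertain, and ferritin protein is set largely by translation, which these arrays do not measure.

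Hmox1 encodes heme oxygenase 1, the inducible enzyme that opens heme and frees its iron. It read 7.41 and 8.10 on BCR-ABL-Blk arrays, 8.08 and 8.19 on BCR-ABL arrays, and 8.94 and 8.17 on vector arrays. Both BCR-ABL-Blk arrays lie below both vector arrays, but the replicates lie far apart in both of these groups. The mean was 7.76 ± 0.49 in BCR-ABL-Blk cells and 8.56 ± 0.55 in vector cells (SD, n = 2 each), a difference of −0.80 (SE 0.30, 95% interval −1.50 to −0.10) that did not pass (adjusted p = 0.442). It was −0.42 (adjusted p = 0.762) between BCR-ABL and vector and −0.38 (adjusted p = 0.999) between BCR-ABL-Blk and BCR-ABL. Single arrays carried these values: without vector replicate 1 the differences from vector were −0.41 for BCR-ABL-Blk and −0.03 for BCR-ABL cells, and without BCR-ABL-Blk replicate 1 the difference from vector was −0.45.

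Cp encodes ceruloplasmin, a copper ferroxidase made mainly in liver that helps load exported iron onto transferrin. It read 5.75 and 5.96 on BCR-ABL-Blk arrays, 5.55 and 5.52 on BCR-ABL arrays, and 5.49 and 5.71 on vector arrays. It is the one iron gene with higher means in BCR-ABL-Blk cells, whose arrays lie above all the others. The difference was 0.25 (SE 0.11, adjusted p = 0.554) between BCR-ABL-Blk and vector, −0.06 (adjusted p = 0.929) between BCR-ABL and vector, and 0.32 (95% interval 0.05 to 0.58, adjusted p = 0.999) between BCR-ABL-Blk and BCR-ABL. Whether this signal lies above background was not measured.

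Over the 6 arrays, the levels of the iron genes other than Cp correlated positively with each other, to different degrees. As a description over n = 6 arrays that share their groups, Slc40a1 correlated with Steap3 at r = 0.95, with Fth1 at 0.85, with Tfrc at 0.73, with Hmox1 at 0.66, with Slc11a2 at 0.31 and with Cp at −0.71. Among 3013 named genes with a mean above the median gene and an SD of at least 0.2, predicted genes and small RNAs left out, those most like Slc40a1 were Fgl2 (r = 0.9886), Klf1 (0.9871) and Traf3ip2 (0.9861). Klf1, a transcription factor of red cell development, read 8.37 and 7.96 on BCR-ABL-Blk arrays, 8.73 and 8.67 on BCR-ABL arrays, and 9.27 and 9.16 on vector arrays. Klf1, Fgl2 and Traf3ip2 all step down in the order of Slc40a1. They were picked for that likeness, so it is not a separate result. Those most like Tfrc were Surf2 (r = 0.955), Mrpl52 (0.955) and Eri2 (0.950).

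The other genes of iron and heme handling were read from 5 lists, in which 0 genes were called in any comparison by limma (0 to 4 of a list had an unadjusted p under 0.05 in one direction). Genes named below are those with small unadjusted p-values, and their differences did not pass unless stated. Of 26 other genes of iron uptake, export and storage, all measured, 4 were lower and 0 higher at an unadjusted p under 0.05 between BCR-ABL-Blk and vector, with a list median of −0.02. The same counts were 1 and 0 between BCR-ABL and vector (median −0.03), and 2 and 0 between BCR-ABL-Blk and BCR-ABL (median −0.06). By its median the list thus lay close to all genes. The 7 iron genes, chosen with results of these data known, had −0.46 in BCR-ABL-Blk against vector cells. By sign, 18 of the 26 lay below 0 in that comparison, as did 48.8% of all genes. At the unadjusted level 4.11% of all genes were lower there and 5.31% higher. These shares were 2.96% and 5.67% between BCR-ABL and vector, and 2.49% and 1.47% between BCR-ABL-Blk and BCR-ABL. Lcn2, the siderophore-binding lipocalin of neutrophil granules, read 8.32 and 7.90 on BCR-ABL-Blk arrays, 9.08 and 9.60 on BCR-ABL arrays, and 8.95 and 9.69 on vector arrays. Unlike Slc40a1 it did not step down in BCR-ABL cells: it differed by −1.21 (SE 0.29, adjusted p = 0.205) between BCR-ABL-Blk and vector and by −1.23 (adjusted p = 0.999) between BCR-ABL-Blk and BCR-ABL. Aco1, which as the iron sensor IRP1 binds ferritin and Tfrc messages, differed by −0.44 (adjusted p = 0.361) between BCR-ABL-Blk and vector. The ferrireductase Steap4 differed by −0.37 in BCR-ABL against vector cells, and the metal importer Slc39a8 by −0.44 in BCR-ABL-Blk against BCR-ABL cells. Other genes went up. Tfr2, another transferrin receptor, which also stands in the erythroid list below, differed by 0.50 (adjusted p = 0.637) between BCR-ABL and vector. Ncoa4 differed by 0.19 (adjusted p = 0.7) there, where 11 of the 26 lay above 0 and 15 below. Between BCR-ABL-Blk and vector Tfr2 differed by 0.24 (adjusted p = 0.849).

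Around heme, Hmox1 works with genes of heme uptake, breakdown and export, of which 13 of 13 were measured. At an unadjusted p under 0.05, 3 were lower and 0 higher between BCR-ABL-Blk and vector (median −0.13), 1 lower and 1 higher between BCR-ABL and vector (median 0.03), and 0 of either between BCR-ABL-Blk and BCR-ABL (median −0.07). In the same order, 4.11% of all genes were lower and 5.31% higher, 2.96% and 5.67%, and 2.49% and 1.47%. Haptoglobin, Hp, which binds free hemoglobin, read 9.09 and 8.81 on BCR-ABL-Blk arrays, 9.70 and 9.74 on BCR-ABL arrays, and 9.87 and 11.11 on vector arrays. The vector arrays lie far apart, and Hp differed from vector by −1.54 (SE 0.35, adjusted p = 0.183) in BCR-ABL-Blk and by −0.77 (adjusted p = 0.604) in BCR-ABL cells. Blvrb, a flavin and biliverdin reductase abundant in red cells, differed by −0.80 (adjusted p = 0.492) between BCR-ABL-Blk and vector. Blvra, which reduces the biliverdin that Hmox1 makes and was named after its values were seen, differed by 0.53 (adjusted p = 0.611), the highest value of the list. It was called without normalization between arrays (0.69, adjusted p = 0.0164), where 732 of all genes were. The porphyrin exporter Abcg2 differed by 0.56 (adjusted p = 0.304) between BCR-ABL and vector. The heme synthesis list holds enzymes and the transporters Abcb6 and Abcb10, and 10 of its 11 genes were measured. In the 3 comparisons 2, 1 and 0 of them were lower at that level and none higher. Abcb6 is 1 of the 2 in BCR-ABL-Blk against vector cells. The medians were −0.22 for BCR-ABL-Blk against vector, −0.17 for BCR-ABL against vector, and −0.08 for BCR-ABL-Blk against BCR-ABL, which turned to 0.20 without normalization between arrays. Relative to the median of all genes that last value was −0.07, and −0.06 without normalization. Alas1, the first enzyme of that route in most cells, read 9.36 and 9.37 on BCR-ABL-Blk arrays, 9.68 and 9.46 on BCR-ABL arrays, and 9.73 and 10.86 on vector arrays. It differed from vector by −0.93 (adjusted p = 0.396) in BCR-ABL-Blk and by −0.72 (adjusted p = 0.591) in BCR-ABL cells. Between BCR-ABL-Blk and vector Abcb6 differed by −0.43 (adjusted p = 0.316) and Cpox, a later enzyme outside that count, by −0.50 (adjusted p = 0.538). Ppox differed by −0.38 (adjusted p = 0.543) between BCR-ABL and vector. In each comparison 8 of the 10 genes lay below 0 and 2 above.

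Leaving out 1 vector array added calls over all genes, from 28 to 560 (without replicate 1) and 227 (without replicate 2) in BCR-ABL-Blk against vector, and from 29 to 507 and 214 in BCR-ABL against vector. Without vector replicate 1, BCR-ABL-Blk cells had Hp (−2.16, adjusted p = 0.00133), Alas1 (−1.49, adjusted p = 0.00414) and Lcn2 (−1.58, adjusted p = 0.0224) called lower than vector, and BCR-ABL cells had Hp (−1.39, adjusted p = 0.00726) and Alas1 (−1.28, adjusted p = 0.00737). Without vector replicate 2, Blvrb (−1.36, adjusted p = 0.0125) and Cpox (−0.88, adjusted p = 0.0176) were called lower in BCR-ABL-Blk than in vector cells. The values turn on which vector array is kept. With single arrays left out, BCR-ABL-Blk against vector ran from −2.16 to −0.92 for Hp, from −1.49 to −0.36 for Alas1, from −1.58 to −0.84 for Lcn2, from −1.36 to −0.24 for Blvrb and from −0.88 to −0.13 for Cpox. BCR-ABL against vector ran from −1.39 to −0.15 for Hp and from −1.28 to −0.16 for Alas1. None of the 7 iron genes other than Slc40a1 was called in either case.

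**Figure D3:**
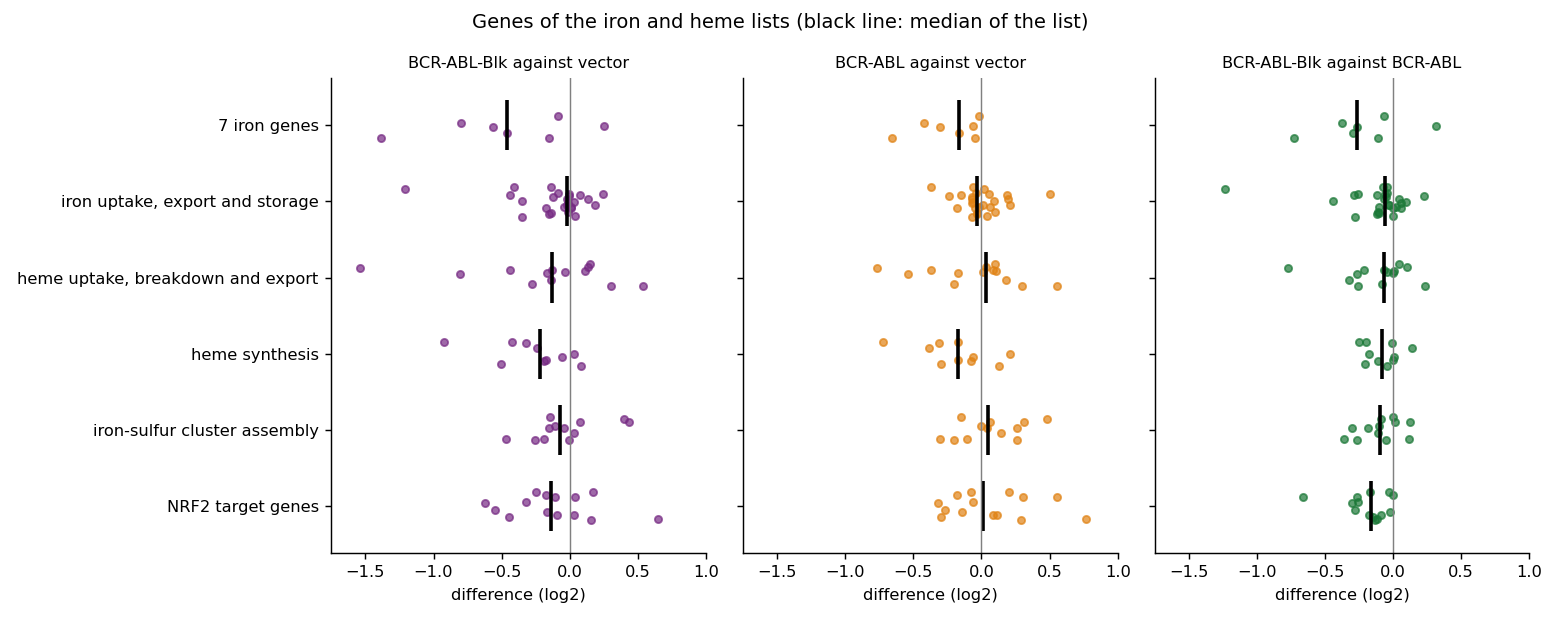
Difference in level (x axis, log2) of each measured gene of the iron and heme lists, with panels for BCR-ABL-Blk against vector, BCR-ABL against vector, and BCR-ABL-Blk against BCR-ABL. Points are genes, spread vertically for legibility, and black lines are list medians. The 7 iron genes, chosen with results of these data known, have a median of −0.46 in the first panel. The iron uptake, export and storage list has −0.02 there.

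Iron-sulfur cluster genes, among the users of mitochondrial iron, had 12 of 15 measured. Their medians were −0.07 for BCR-ABL-Blk against vector, 0.05 for BCR-ABL against vector, and −0.10 for BCR-ABL-Blk against BCR-ABL. At an unadjusted p under 0.05 they held 1 lower and 1 higher, 0 lower and 1 higher, and 0 of either. In the same order, 4.11% of all genes were lower and 5.31% higher, 2.96% and 5.67%, and 2.49% and 1.47%. Isca1, a late assembly factor, differed by −0.47 (adjusted p = 0.376) in BCR-ABL-Blk against vector cells. The ferredoxin Fdx1 differed by 0.48 (adjusted p = 0.346) in BCR-ABL against vector cells, and was called without vector replicate 1 (0.69, adjusted p = 0.0251).

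NRF2 is the oxidative stress factor known to induce Hmox1, Fth1 and Slc40a1, and 14 of 15 of its listed targets and partners were measured. The medians were −0.14 for BCR-ABL-Blk against vector, 0.01 for BCR-ABL against vector, and −0.16 for BCR-ABL-Blk against BCR-ABL, and turned to 0.01, −0.06 and 0.07 without normalization between arrays. In that setting the median of all genes was 0.15, −0.11 and 0.25, so that relative to all genes the list stood at −0.14, 0.05 and −0.18, against −0.14, −0.01 and −0.14 with normalization. At an unadjusted p under 0.05 they held 2 lower and 1 higher, 0 lower and 2 higher, and 1 lower and 0 higher. Over all genes the shares were 4.11% lower and 5.31% higher, 2.96% and 5.67%, and 2.49% and 1.47%. Gclc, which starts glutathione synthesis, differed by −0.62 (adjusted p = 0.358) in BCR-ABL-Blk against vector cells. Me1 went the other way. It differed by 0.65 (adjusted p = 0.419) between BCR-ABL-Blk and vector and by 0.77 (adjusted p = 0.358) between BCR-ABL and vector. These were the highest differences of the list in both comparisons. The cystine importer Slc7a11 read 6.36 and 6.06 on BCR-ABL-Blk arrays, 6.82 and 6.91 on BCR-ABL arrays, and 6.33 and 6.30 on vector arrays. Its BCR-ABL arrays lie above all the others, an order that none of the 7 iron genes shows. Slc7a11 differed by 0.55 (SE 0.12, adjusted p = 0.183) between BCR-ABL and vector and by −0.66 (adjusted p = 0.999) between BCR-ABL-Blk and BCR-ABL.

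Slc40a1 and Hmox1 are known for high levels in macrophages, and Tfrc and Steap3 for high levels in red cell precursors, so markers of these cells were read on the same arrays. In bulk samples fewer cells of a type and less RNA per cell cannot be told apart. The erythroid list had 14 of 18 genes measured, and the sum of their linear intensities was 5114 to 6745 on BCR-ABL-Blk arrays, 7317 to 7528 on BCR-ABL arrays, and 8931 to 14070 on vector arrays. These sums fall in the same order as Slc40a1 and do not overlap. Bright genes weigh most in such sums. Among them is Car1, the gene with the lowest difference of the list between BCR-ABL-Blk and vector (−1.94). Car1 read 10.42 and 9.44 on BCR-ABL-Blk arrays, 10.64 and 10.81 on BCR-ABL arrays, and 12.19 and 11.56 on vector arrays. The sums without Car1 were not computed. The list medians, 8.32 and 7.82 on BCR-ABL-Blk arrays, 8.40 and 8.44 on BCR-ABL arrays, and 9.03 and 8.22 on vector arrays, do overlap: vector replicate 2 lies below both BCR-ABL arrays. Between BCR-ABL-Blk and vector 12 of 14 lay below 0 with a median of −0.51, where Klf1 differed by −1.05 (adjusted p = 0.0714), Gata1 by −0.22 and Epor, the erythropoietin receptor, by −0.41, and none was called. Without vector replicate 1 Klf1 was called (−1.0, adjusted p = 0.0470), and Gata1 turned to 0.25. For BCR-ABL-Blk against BCR-ABL 11 of 14 lay below 0 (median −0.21, or 0.08 without normalization between arrays, and −0.19 or −0.18 relative to all genes). The vector arrays differed from each other in the median of that list, but not in all of its genes. On vector replicates 1 and 2, Klf1 read 9.27 and 9.16, Epor 7.95 and 8.07, and Gata1 8.97 and 8.03. Slc40a1 read 8.26 and 8.24 there, and its relation to the list was not tested.

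The macrophage list (16 of 17 genes measured) summed to 2545 to 3323 on BCR-ABL-Blk arrays, 2839 to 3653 on BCR-ABL arrays, and 4015 to 4557 on vector arrays. By these sums both BCR-ABL groups lie below vector and overlap with each other. The list medians overlap in all 3 groups, at 7.09 to 7.38 on BCR-ABL-Blk arrays, 7.08 to 7.46 on BCR-ABL arrays, and 7.14 to 7.98 on vector arrays. Between BCR-ABL-Blk and vector 13 of 16 lay below 0, with a median of −0.27; the lysosomal protein Cd68 differed by −1.15 (adjusted p = 0.0696), the receptor Csf1r by −0.96 and Adgre1, the F4/80 antigen, by −0.41. Without vector replicate 1 Cd68 was called (−1.23, adjusted p = 0.0222), and Adgre1 turned to 0.46. For BCR-ABL-Blk against BCR-ABL 8 of 16 lay below 0, with a median of −0.02. There Cd68 differed by −0.40, Adgre1 by −0.05 and Csf1r by 0.08, and Slc40a1 by −0.73. Each of these had a limma adjusted p of 0.999.

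Other cell type lists differed between the groups too. Monocyte genes (11 of 12 measured) summed to 7126 on each BCR-ABL-Blk array, 7301 to 8690 on BCR-ABL arrays, and 12020 to 13310 on vector arrays, with 10 of 11 below 0 between BCR-ABL-Blk and vector (median −1.04). Of these, Cybb, a subunit of the phagocyte oxidase, fell by 1.45 (adjusted p = 0.0383) and the chemokine receptor Ccr2 fell by 1.38 (adjusted p = 0.0490), while Irf8 differed by −1.04 and Cx3cr1 by −0.75. Cybb also fell by 1.23 between BCR-ABL and vector (adjusted p = 0.0483). Each of these calls was lost without either BCR-ABL array or either BCR-ABL-Blk array, with adjusted p-values of up to 0.335. Neutrophil granule genes summed to 18630 to 21640, 24370 to 26690 and 26240 to 38500 in BCR-ABL-Blk, BCR-ABL and vector cells, with all 14 below 0 between BCR-ABL-Blk and vector (median −0.72), Elane at −1.56, Prtn3 at −1.09 and Mpo at −0.35. Lcn2 stands in that list as well as in the iron list. B cell genes (9 of 10 measured) summed to 3206 to 4562, 2465 to 2989 and 6167 to 17480 in the same order of groups, with all 9 below 0 between BCR-ABL-Blk and vector (median −1.48), Pax5 at −1.48, Cd79b at −1.21 and Cd79a at −0.79. Stem and progenitor genes (8 of 10 measured) went the other way, with sums of 10800 to 11030, 9847 to 10340 and 8417 to 8688. Their median was 0.54 between BCR-ABL-Blk and vector, where Meis1 rose by 1.08 (adjusted p = 0.0490), Cd34 differed by 0.36 and Kit by −0.28. The call of Meis1 was lost without BCR-ABL-Blk replicate 1 (adjusted p = 0.170) or 2 (0.236) and without BCR-ABL replicate 1 (0.150) or 2 (0.151). The lowest level of a listed marker on any array was 5.24, for Ms4a1, where the lowest of any named gene was 3.04. Whether such low readings lie above background was not measured. The part of these cell type genes in the differences of the iron genes was not tested.

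**Figure D4:**
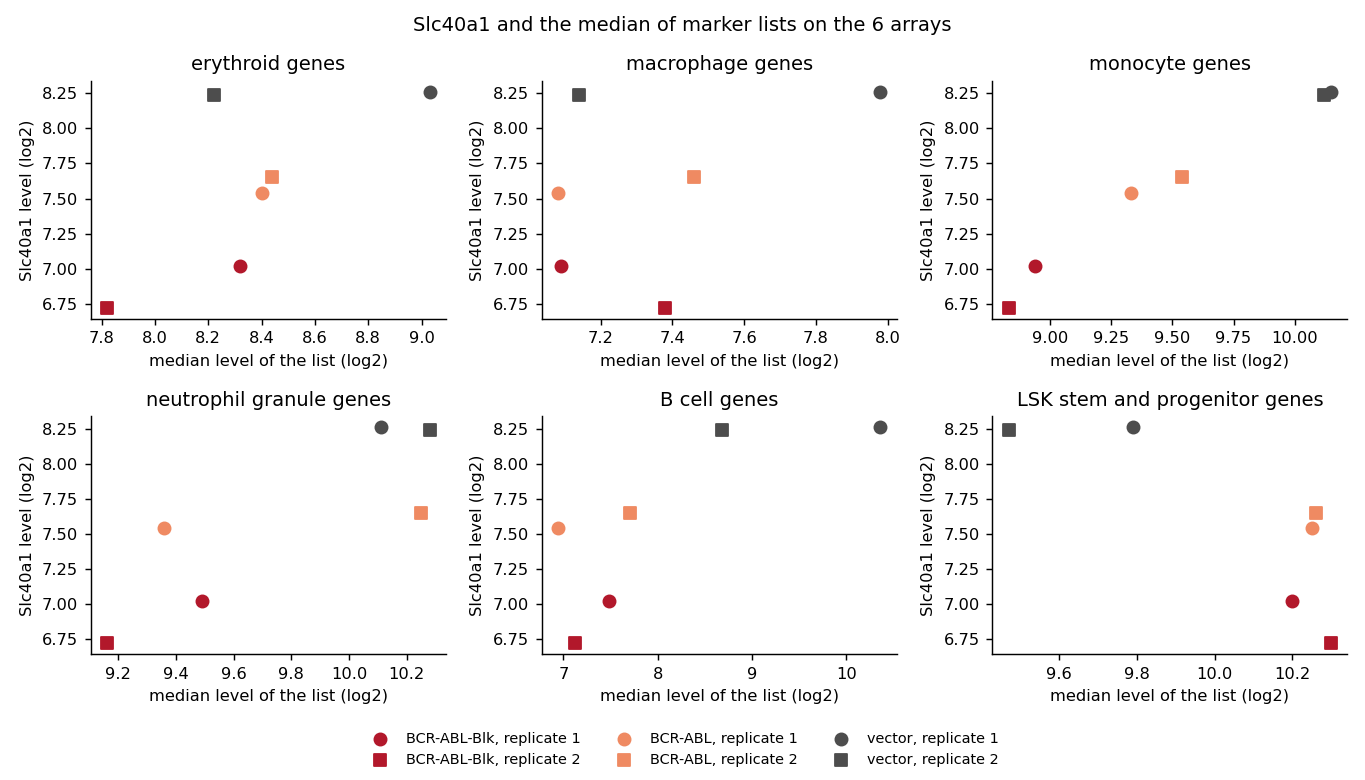
Level of Slc40a1 (y axis, log2 intensity) against the median level of each marker list (x axis, log2 intensity) on the 6 arrays, with circles for replicate 1 and squares for replicate 2. On the vector arrays Slc40a1 reads 8.26 and 8.24, and the erythroid medians are 9.03 and 8.22. The relation of Slc40a1 to these lists was not tested. Monocyte medians are 8.94 and 8.83 in BCR-ABL-Blk cells, 9.33 and 9.54 in BCR-ABL cells, and 10.15 and 10.12 in vector cells.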

How the data were processed

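Per the labels' protocols, total RNA of sorted cells was hybridised to 1 Affymetrix whole-transcript array per sample; groups and replicate numbers come from the sample titles. The deposited values are log2 intensities of 35557 probe sets, made with Affymetrix Expression Console 1.1 and RMA per the submitters' processing notes; options and build were not given in the sources used here. Because array medians differed, the arrays were quantile normalized, which changes small shifts of whole groups most.

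Of the probe sets, 21789 had 1 gene symbol in the platform annotation, 1621 had several and 12147 were unlisted. Where several probe sets shared a gene (999 genes), the brightest on average was kept, leaving 19938 genes, with no filter on level. Limma 3.58.1 in R 4.3.3 (lmFit, eBayes with intensity trend) fitted 3 group means over 6 arrays with 3 residual degrees of freedom; p-values are two-sided. The fit was tested on simulated data, where a somewhat larger share of the calls was false than the threshold allows. Figures used Python 3.11.15 and matplotlib 3.10.9. The members, lists, settings and naming rule were chosen with earlier results of these data known. By that rule the members, Blk, called list genes and up to 4 genes per list with the smallest p are named, with the first 3 genes of each marker list and the 3 genes most correlated with Slc40a1 and Tfrc.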

Additional observations from a re-analysis of the deposited data

How the results depend on the processing

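The call of Slc40a1 between BCR-ABL-Blk and vector, the 1 called iron gene, ended (count 0) in eBayes without an intensity trend (adjusted p = 0.0616); with single arrays left out the count ran from 0 to 1, and in the other comparisons 0 iron genes were called under every alternative. Over its 13 alternatives that adjusted p ran from 0.000607 to 0.102. All genes called between BCR-ABL-Blk and vector numbered 28 (19 higher, 9 lower): 732 (562 higher, 170 lower) without normalization between arrays, where the prior took the spread wholly from the trend, 71 with genes above the median only, 14 with array weights, 4 without the trend, and 4 to 560 with single arrays left out (58 higher and 169 lower without vector replicate 2). Between BCR-ABL and vector they numbered 29: 401, 53 and 15 under the first, second and last of those settings, and 1 to 507 with arrays left out. Between BCR-ABL-Blk and BCR-ABL they numbered 0 (790 at an unadjusted p under 0.05), 79 without normalization, and 0 to 2 with arrays left out. A lone array was assumed to vary like the other groups; causes were not tested unless an alternative's construction gives them.

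Signs turned for uncalled differences. With single arrays left out, BCR-ABL against vector ran from −0.40 to 0.07 for Tfrc, from −0.44 to 0.34 for Slc11a2 and from −0.17 to 0.04 for Cp. BCR-ABL-Blk against vector ran from −0.55 to 0.23 for Slc11a2, from −0.69 to 0.25 for Gata1, from −1.27 to 0.46 for Adgre1 and from −0.17 to 0.03 for Blk. BCR-ABL-Blk against BCR-ABL ran from −0.23 to 0.01 for Slc11a2. The arrays that turned Tfrc were vector replicate 1 (0.07) and BCR-ABL replicate 2 (0.01). Without normalization, Fth1 (0.03) and Blk (0.08) turned in BCR-ABL-Blk against vector, and Fth1 (0.06), Slc11a2 (0.18) and Steap3 (0.02) in BCR-ABL-Blk against BCR-ABL. With arrays centred on their medians, Fth1 turned to 0.11 in BCR-ABL against vector.

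The replicate numbers did not pair the arrays: deviations from group means correlated at −0.0618, 0.0841 and 0.0334 over the 3 pairs of groups. With a replicate block Slc40a1 stayed called (−1.39, adjusted p = 0.0422) and 23 genes were called between BCR-ABL-Blk and vector, 29 between BCR-ABL and vector, and 0 between BCR-ABL-Blk and BCR-ABL. Under the block Meis1 (adjusted p = 0.0611), Ccr2 (0.0522) and Cybb in BCR-ABL against vector (0.0519) lost their calls, and Mt2 gained one (0.0422).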

Other observations

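Slc40a1 is 1 of 21 genes (0.105% of those tested) whose arrays stepped down without overlap, BCR-ABL-Blk below BCR-ABL below vector, and with an unadjusted p under 0.05 at both steps. They were picked by their values, so no test applies. Among them are Car1, a carbonic anhydrase of red cell precursors, which differed by −1.94 between BCR-ABL-Blk and vector, the metal-binding metallothioneins Mt2 (−1.60) and Mt1 (−1.59), Ccr2 (−1.38), Cd68 (−1.15), Klf1 (−1.05) and Kel, a red cell surface protein (−1.16). Mt1 read 10.28 and 9.60 on BCR-ABL-Blk arrays, 10.81 and 10.62 on BCR-ABL arrays, and 11.33 and 11.72 on vector arrays.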
